A study of Homo sapiens with 6 samples.

Results

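The 165 genes described here are long intergenic RNA genes: every gene whose symbol is LINC followed by 5 digits and whose raw count summed over all 6 libraries was 300 or more. They were drawn from 2105 rows with such a symbol, of which 1136 had a count, among 60609 genes in all. The members were chosen by this summed count, so a gene silent in one group entered only if the other group alone supplied the reads. Libraries were made from poly(A) RNA of K562 cells, an established human leukaemia line, and read with strand kept. Every cell carried a degradation tag on both endogenous copies of EP400, the scaffold and ATPase of the TIP60 complex, and received 500 nM dTAGV-1, which removes the tagged protein, for 24 h. In the WT group (3 libraries) a wild-type EP400 transgene at the AAVS1 site replaced the lost protein. In the Delta-TRRAP group (3 libraries) the transgene lacked the SANT and HD domains that hold TRRAP, the subunit through which transcription factors recruit the complex. One clone was taken for each transgene, so clone and genotype cannot be told apart, and the replicates measure the spread within a clone.

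Long intergenic RNAs are capped, spliced and polyadenylated transcripts longer than typical small RNAs, made by RNA polymerase II from DNA between coding genes. Most have no assigned molecular function and carry serial LINC numbers for that reason. As a class they are known for low abundance and for expression restricted to few cell types. TIP60 places and acetylates H2A.Z, a histone variant found mainly at promoters and enhancers, where many of these RNAs also start. The name does not hold strictly by position: 31 of the 165 members overlap an annotated coding gene.

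The libraries held 35076835 to 42616061 counts in genes. EP400 itself had 5057.1 ± 277 normalized counts in WT and 5574.1 ± 1238.4 in Delta-TRRAP (SD, n = 3 each), with an edgeR adjusted p of 0.272, and the count adds tagged locus and transgene. A normalized count is a count divided by the library's relative effective size. The submitters label the cells as lymphoblasts. Of 5 B lymphoid markers 1 was abundant enough to test, and their summed level was 0.771 to 1.2 CPM (counts scaled by the library total), while 15 erythroid markers summed to between 5574.8 and 5604.8 CPM in the WT libraries and between 4496.3 and 4569.9 CPM in the others, with 6 of the 15 called higher and 1 lower. The 8 fibroblast markers summed to between 0.871 and 1.4 CPM in the WT libraries and between 24.5 and 25.9 CPM in the others, with LUM and PDGFRA at 0 throughout and 2 of 4 tested called higher. The 6 myeloid markers summed to between 198 and 216 CPM in WT and between 24.5 and 26.4 CPM in Delta-TRRAP, with ELANE at 0 and, of 4 tested, 1 called higher and 1 lower. The 4 T lymphoid markers summed to 10.9 to 12.2 CPM over all libraries. Mitochondrial genes took 3.18% to 3.71% of the WT counts and 5.07% to 6.24% of the Delta-TRRAP counts. Marker sums and mitochondrial share differed between the same groups as every result below, and their part in those results was not tested. In bulk RNA, fewer cells of a type and less RNA per cell cannot be told apart.

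More of these RNAs rose than fell in Delta-TRRAP. Of 165 genes, 36 were higher in Delta-TRRAP (21.8%) and 15 were lower (9.09%), where a call required both an edgeR adjusted p no larger than 0.01 and a change of 2-fold or more. Over all 19114 genes tested, the same rule called 16.5% higher and 6.08% lower, 22.6% in all. Rises made up 70.6% of the calls among LINC genes and 73.1% of the calls among all genes tested. That order depends on which genes are set beside them: among genes with a raw total of 300 or more 1182 of 1970 calls were rises, and with a minimum mean of 50 rises were 75.9% of member calls and 65.7% of all calls. A further 65 LINC genes passed the adjusted p at a smaller fold change, 51 of them upward and 14 downward. The remaining 49 did not pass it. Without regard to fold change 70.3% passed (87 upward, 29 downward), against 58.3% of all genes tested (30.7% upward, 27.6% downward). These 2 shares are not at like depth. Members needed a raw total of 300, while genes tested needed only a mean normalized count of 5, and sparse genes pass less easily. The share passing among genes with a total of 300 or more was not taken. DESeq2 and limma-voom also called 36 members higher and 15 lower, beside 15.1% and 5.73% of all genes with DESeq2 (20.8% in all) and 16.4% and 6.03% with limma-voom (22.4% in all). The median log2 fold change was 0.32 (quartiles -0.15 and 0.90), beside 0.03 (quartiles -0.39 and 0.64) over all genes tested and -0.07 over genes with a raw total of 300 or more. Library size scaling raised both medians, to 0.46 and 0.17.

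**Figure D1:**
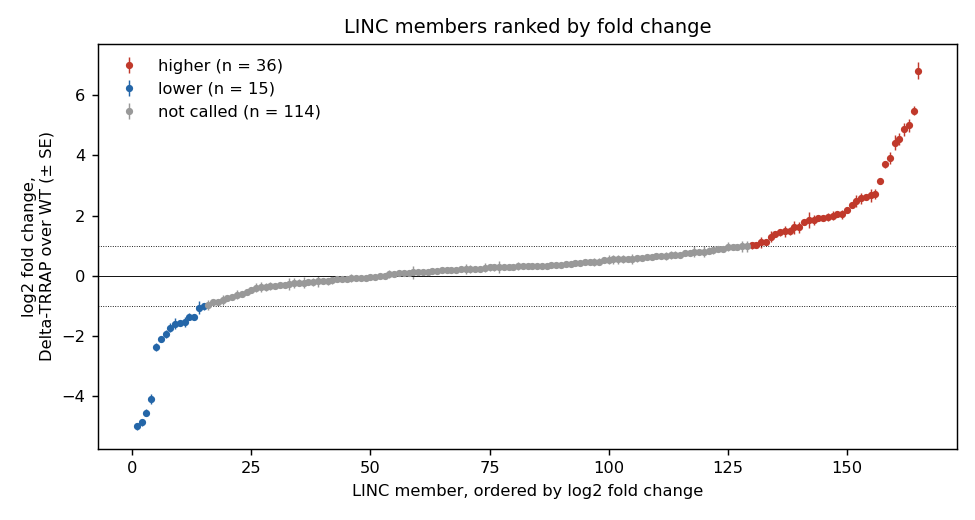
Each point is 1 of the 165 LINC genes, ordered on the horizontal axis by its log2 fold change, Delta-TRRAP over WT, on the vertical axis, with bars for the standard error. Red points are the 36 genes called higher, blue points the 15 called lower and grey points the 114 not called; dotted lines mark a fold change of 2, and values run from -5.00 to 6.81.

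The members spread over 23 chromosomes and ranged from 305 to 51979 counts in total. In 130 of them (78.8%) the 3 Delta-TRRAP libraries did not overlap the 3 WT libraries, against 71.1% of all genes tested, with 94 entirely above WT and 36 entirely below (37.4% and 33.7% of all genes tested). The genes tested include sparser ones than the members, and the share at a like read total was not taken. All 51 called genes were free of overlap. Replicates lay close together: the median coefficient of variation was 7.58% in WT and 7.8% in Delta-TRRAP. The widest spread in WT was that of LINC02575, at 93.1% on 5 reads. In Delta-TRRAP it was that of LINC01004, at 155, 185 and 293 normalized counts, the last being replicate 3. It was still called higher, at a log2 fold change of 1.61 ± 0.21 (SE).

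Together these RNAs took a small and rising part of the poly(A) reads. Their share of all gene counts was 0.201%, 0.196% and 0.198% in the WT libraries. In the Delta-TRRAP libraries it was 0.259%, 0.261% and 0.256%. All 3 Delta-TRRAP shares lay above all 3 WT shares. The 6 most abundant members supplied 30.7% to 32.2% of these counts in every library. The number of LINC genes of any total with 10 or more counts lay between 269 and 276 in the WT libraries and between 351 and 364 in the Delta-TRRAP libraries, although the Delta-TRRAP libraries were the smaller ones. Genes of every name moved the same way. Those with any count numbered 25668 to 25998 in the WT libraries and 27928 to 28033 in the Delta-TRRAP libraries. For LINC genes with any count the numbers were 636 to 656 and 812 to 832. The larger number detected is therefore not particular to LINC genes.

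Called rises were more frequent among sparse RNAs, as they were among other genes. Of 40 members with a mean normalized count under 100, 16 were called higher and 3 lower (40% and 7.5%). Between 100 and 1000 the numbers were 18 higher and 11 lower of 101. At 1000 or more, 2 of 24 were higher and 1 was lower. Over all genes with a raw total of 300 or more the shares called higher in these ranges were 30.2%, 13.8% and 2.41%, and the shares called lower 8.77%, 8.89% and 3.89%. The median WT level of the 36 rises was 44.6 normalized counts, against 229 for the 15 falls and 248 for members not called. Because fold change is computed from the WT level, this order is only a description.

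**Figure D2:**
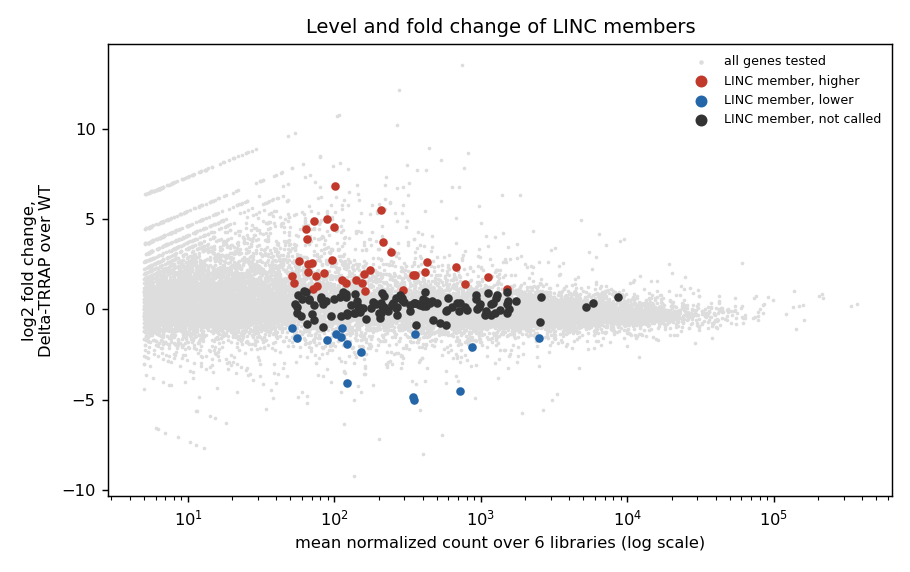
The horizontal axis gives the mean normalized count over 6 libraries on a log scale and the vertical axis the log2 fold change, Delta-TRRAP over WT. Pale grey points are all 19114 genes tested and larger points the LINC genes; the 6 LINC points above 4 have means of 64.3 to 207, and the 24 members at 1000 or more lie between -1.57 and 1.78.

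Among rises, 18 reached a fold change of 4, 9 a fold change of 8 and 6 a fold change of 16. LINC02575 (ENSG00000228709.1, GRCh38 chromosome 21, 44485463 to 44495519) moved most. It had 0, 1.92 and 3.05 normalized counts in WT and 212, 195 and 195 in Delta-TRRAP. The WT values rest on 5 reads in all, so the fold is poorly bounded: scaled by library size the ratio of raw counts was 133, and counting error alone left it between 56.5 and 410 (exact 95% interval). The fitted log2 fold change of 6.81 ± 0.28 (SE) had an adjusted p of 1.43e-11 in edgeR. This SE comes from the F statistic and is narrower than the counting interval, so it overstates the precision.

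LINC02241 (ENSG00000251629.7, chromosome 5, 20611806 to 20937800) had the next largest rise. It counted 9.12, 9.59 and 8.14 in WT and 425, 408 and 385 in Delta-TRRAP, normalized. Every library of one group stood far from every library of the other. In the edgeR fit the log2 fold change came to 5.48 ± 0.15 (SE), adjusted p 1.24e-13. Scaled by library size the ratio of raw counts was 49.7, with an exact 95% counting interval of 34 to 75.8. LINC02671 (ENSG00000224714.3, chromosome 10, 64901136 to 65017639) went from 3.04, 5.76 and 7.12 to 184, 160 and 178 normalized counts, a log2 fold change of 5.00 ± 0.22 (SE). Its ratio of raw counts was 35.9, with a counting interval of 21.9 to 63.3. For both genes the SE is narrower than the counting interval.

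LINC01609 (chromosome 8, 111093263 to 111236203) stood at 4.05, 5.76 and 4.07 normalized counts in WT and at 142, 137 and 140 in Delta-TRRAP. Its neighbour LINC01608 starts 52891 bases away and gained far less, at a log2 fold change of 0.81, below the fold threshold. LINC00922 (chromosome 16, 65284496 to 65576345) changed from 9.12, 8.63 and 6.1 to 184, 205 and 179. On chromosome 8, LINC01606 (57142659 to 57244793) went from 6.08, 7.67 and 3.05 to 117, 139 and 113. LINC01132 (chromosome 1, 234724042 to 234736720) went from 8.11, 8.63 and 7.12 to 121, 134 and 111. All 4 were therefore near the detection limit in WT and readily counted in every Delta-TRRAP library, with log2 fold changes of 3.91 to 4.87 and edgeR adjusted p of 3.04e-11, 1.58e-11, 4.34e-10 and 2.51e-10 in the order named.

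LINC00656 (chromosome 20, 23125068 to 23132635) differed from these in having clear WT reads. It held 35.5, 24.9 and 31.5 normalized counts in WT and 415, 415 and 368 in Delta-TRRAP, a log2 fold change of 3.70 ± 0.13 (SE) and an edgeR adjusted p of 2.26e-12.

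**Figure D3:**
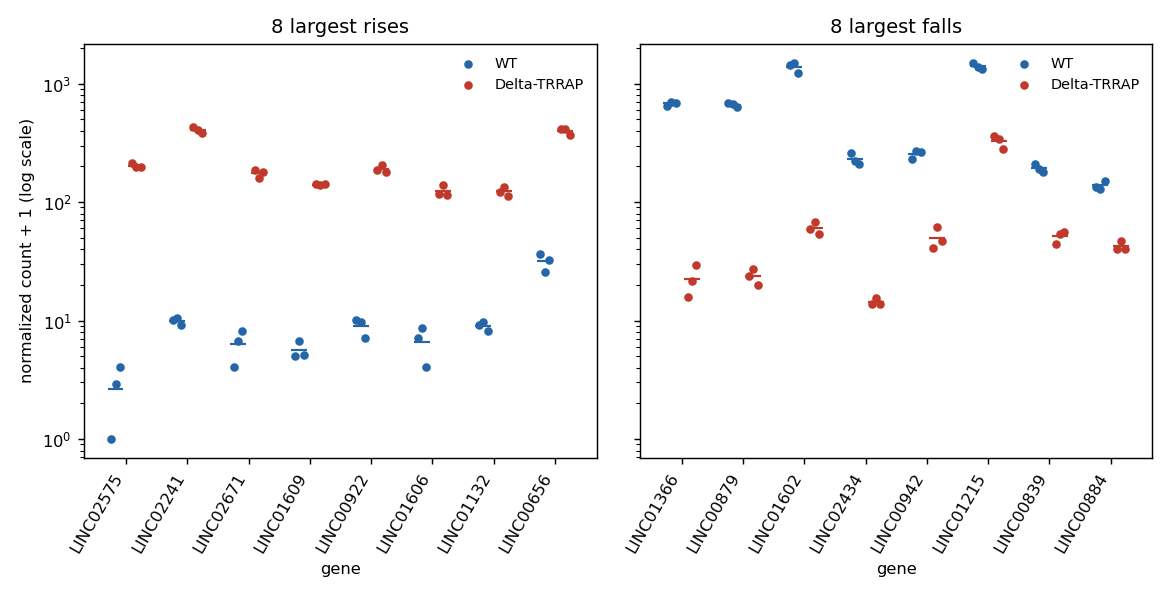
Each point is 1 library, with WT in blue and Delta-TRRAP in red, short lines at group means, and the vertical axis giving the normalized count plus 1 on a log scale. The left panel holds the 8 LINC genes with the largest rises and the right panel the 8 with the largest falls; the groups do not overlap in any of the 16, and only LINC02575 has a WT library at 0.

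No member was on in one group only. That was set as 10 or more reads in each library of one group and 3 or fewer reads in all in the other, and LINC02575, with 5 WT reads, came nearest. With WT replicate 2 or WT replicate 3 left out it met the definition. Allowing 30 reads in the other group gave 7 genes, all on in Delta-TRRAP: LINC02575, LINC02241, LINC02671, LINC01609, LINC00922, LINC01606 and LINC01132. None was on in WT only, and the member with the fewest Delta-TRRAP reads, LINC02434, had 40. The total of 300 bears on this count. Among the 103 LINC genes with totals of at least 100 and under 300, 7 met the strict definition, again all in Delta-TRRAP. Genes without LINC names were not counted by these rules, and 73.1% of the calls over all genes tested were rises. The direction of these counts is therefore not a result about LINC genes.

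Falls were fewer, and the largest began from moderate WT levels. Of the 15, 6 reached a fold change of 4, and 4 of those also reached a fold change of 16. LINC01366 (ENSG00000235172.8, chromosome 5, 170307722 to 170335508) fell most. It had 648, 699 and 690 normalized counts in WT and 14.7, 20.5 and 28.6 in Delta-TRRAP, a log2 fold change of -5.00 ± 0.13 (SE) with an edgeR adjusted p of 1e-13.

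LINC00879 (chromosome 3, 94937980 to 95168351) was at 690, 669 and 628 in WT and at 22.6, 26.3 and 19 in Delta-TRRAP, normalized. LINC01602 (chromosome 8, 57855500 to 57984126) began higher, at 1424.6, 1490.7 and 1222 normalized counts, and ended at 57.9, 66.3 and 52.9. LINC02434 (chromosome 4, 188159705 to 188161157) went from 259, 220 and 207 to 12.7, 14.6 and 12.7. The log2 fold changes of these 3 genes were -4.86 ± 0.12, -4.54 ± 0.11 and -4.08 ± 0.17 (SE), and residual expression stayed detectable in every Delta-TRRAP library. LINC01602 and LINC01606 lie on the same arm of chromosome 8 and moved in opposite directions.

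The next 4 falls ranged from 3.29-fold to 5.18-fold. LINC00942 (chromosome 12) stood at 230, 267 and 263 normalized counts in WT and 40.2, 60.4 and 45.5 in Delta-TRRAP. LINC01215 (chromosome 3) was among the more abundant members in WT, at 1496.6, 1390 and 1317.6, and had 361, 338 and 279 in Delta-TRRAP. Per kilobase of annotated exon it ranked 4 of 159 in WT and 39 in Delta-TRRAP. LINC00839 (chromosome 10) changed by -1.93 ± 0.13 and LINC00884 (chromosome 3) by -1.72 ± 0.14 on the log2 scale (SE). LINC00884 overlaps ATP13A3, a transporter gene that itself changed by -0.92 ± 0.07.

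Most of the abundant members moved modestly. LINC01287 (chromosome 7), the member with the most reads, had 6705.7, 6642.9 and 6775.2 normalized counts in WT and 10255.3, 10943.7 and 10676.1 in Delta-TRRAP. That is a fold change of 1.58, with an edgeR adjusted p of 1.1e-08 and no overlap, yet below the fold threshold. LINC00958 (chromosome 11) was higher by 0.32 ± 0.06 and LINC00667 (chromosome 18) by 0.70 ± 0.05 on the log2 scale (SE). LINC01029 (chromosome 18) did not pass, at 0.10 ± 0.05 and an adjusted p of 0.102. It passed the adjusted p, far below the fold threshold, under library size scaling (0.23), upper quartile scaling (0.20) and a minimum mean of 50 (0.17). On the other side, LINC00534 (chromosome 8) was lower by a fold of 1.64. LINC00662 (chromosome 19) was the one member with a mean of 1000 or more called lower, from 3857.5, 3588.6 and 3767.6 to 1219.9, 1275.1 and 1278.8 normalized counts, with an edgeR adjusted p of 1.24e-12.

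Divided by annotated exon length, the order at the top was the same in both groups. LINC01029, LINC00958 and LINC01287 ranked 1, 2 and 3 of the 159 members annotated as lncRNA, at 1134.8, 892 and 664 normalized counts per kilobase in WT and 1217.6, 1115.8 and 1051.3 in Delta-TRRAP. The median over these members was 57.1 per kilobase. Lengths came from a later annotation release than the counting used. The other 6 members are transcribed pseudogenes in that release and were left out of this ranking, and reads of near-identical copies were discarded by the unique-mapping rule, so their counts are uncertain. They include LINC00431, called higher at a log2 fold change of 2.61.

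The least changed members were LINC01003, LINC01128, LINC00665 and LINC01088, those with the smallest fitted change among totals of 1000 or more. LINC01003 (chromosome 7) had 955, 964 and 911 normalized counts in WT and 1037.5, 887 and 902 in Delta-TRRAP. LINC01128 (chromosome 1) had 1504.7, 1520.4 and 1611.6 against 1507.2, 1630 and 1493.6. Groups overlapped in all 4, and the standard errors of 0.06 to 0.07 on the log2 scale leave room for small shifts. Their fitted changes of -0.04 to 0 became positive under library size scaling, at 0.09 to 0.13.

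A few members carry a described role. LINC00467 (chromosome 1, 211382736 to 211435570) encodes a small protein of the mitochondrial ATP synthase in some transcripts. It rose from 552, 459 and 499 to 1805.3, 1605.6 and 1776 normalized counts, a change of 1.78 ± 0.07 (SE) on the log2 scale with an adjusted p of 1.08e-11 in edgeR. The genes in the rest of this paragraph were singled out after their values were seen. LINC01578, named CHASERR in the later release, is known as a restraint on its neighbour CHD2, a chromatin remodeler. LINC01578 had 1348.6, 1315.2 and 1274.9 normalized counts in WT and 1073.8, 937 and 1120.2 in Delta-TRRAP, a log2 fold change of -0.33 ± 0.07 (SE). CHD2 changed by 0.22 ± 0.06, with adjusted p of 0.000353 and 0.00414 for the pair, and neither reached a fold change of 2. LINC00346 and LINC02163, known from carcinomas as PRECSIT and NIHCOLE, changed by -0.07 ± 0.06 (0.06 under library size scaling) and 0.32 ± 0.09.

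The read total of 300 bounded the set. Just inside it were LINC00271 with 305 reads (66 WT, 239 Delta-TRRAP), LINC01277 with 307 (208 and 99) and LINC02021 with 318 (84 and 234). Just outside were LINC01892 with 292 reads (173 and 119), LINC01416 with 289 (33 and 256) and LINC01136 with 277 (52 and 225). Genes on both sides of the boundary thus included some with most reads in Delta-TRRAP and some with most reads in WT. LINC00271 had WT values of 32.4, 9.59 and 24.4, and LINC01277, at a log2 fold change of -1.06, was no longer called without WT replicate 1 (-0.94), without Delta-TRRAP replicate 1 (-0.84), under library size (-0.93) or upper quartile scaling (-0.96), or with a minimum mean of 50 (-0.99).

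To place LINC genes beside other classes, the same read total of 300 was applied to all genes. Of 10882 protein-coding genes, 7.84% were called higher and 6.26% lower. Clone-named genes, whose symbols are clone identifiers and which are mostly non-coding, had 20.7% higher and 5.01% lower of 798. Genes with antisense names had 25.5% higher and 4.18% lower of 239. Over all genes with this total 9.31% were called higher and 6.2% lower (15.5% in all), beside 21.8% and 9.09% of the LINC genes.

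Shares and medians were also taken within ranges of read total. Among genes with at least 300 and under 1000 reads, 32.9% of 70 LINC genes and 32.5% of 1136 protein-coding genes were called higher, and 12.9% and 12.6% were called lower. From 1000 to under 10000 reads the shares were 14.8% higher and 5.68% lower for 88 LINC genes, and 8.42% and 7.37% for 4584 protein-coding genes. The median log2 fold change of LINC and protein-coding genes was 0.55 and 0.34 in the lower range and 0.30 and -0.04 in the upper one, beside 0.32 and -0.09 over all totals of 300 or more. Levels still differed within the upper range, with median WT normalized counts of 394 for LINC and 724 for protein-coding genes, so it is not matched for level. In the lower range they were 71.1 and 77.5. At 10000 or more reads 0 of 7 LINC genes were called higher and 1 lower, beside 1.9% and 3.87% of protein-coding genes. These values are descriptions and their differences were not tested. Below 1000 reads, 24.7% of clone-named and 35.2% of antisense-named genes were called higher, and 4.02% and 3.81% lower. The LINC share of falls, above both, rests on 9 genes. From 1000 to under 10000 reads the shares were 12.7% and 18.9% higher and 7.31% and 4.92% lower. There the LINC share of falls lay between the clone-named and antisense-named shares.

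**Figure D4:**
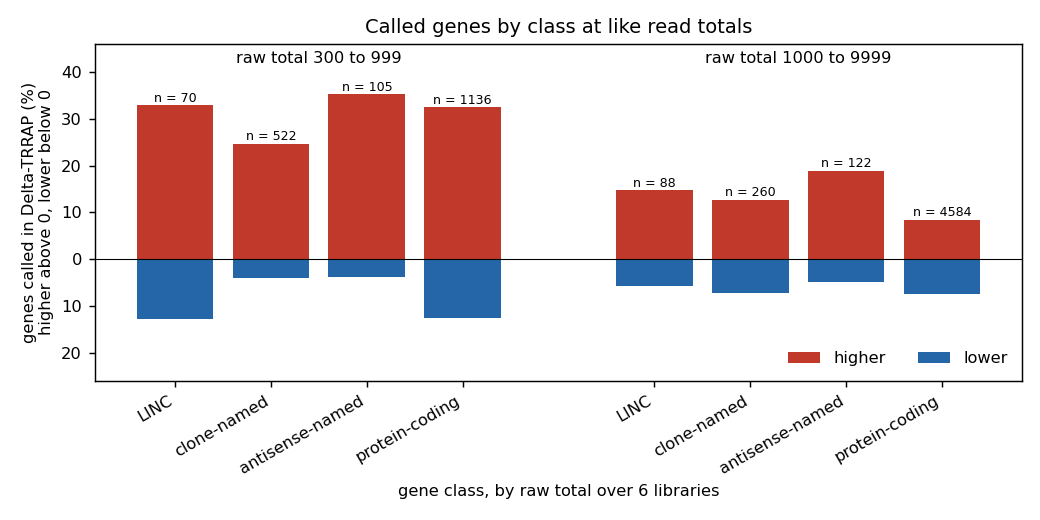
Bars show the percentage of genes called higher (red, above 0) and lower (blue, below 0) in Delta-TRRAP for 4 gene classes, separately for raw totals of 300 to under 1000 (left) and 1000 to under 10000 (right) over 6 libraries, with the number of genes above each bar. In the sparser range LINC genes (32.9% and 12.9%) and protein-coding genes (32.5% and 12.6%) have bars of nearly equal height.

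Some of the strongest changes had a coding neighbour that changed with them. The nearest tested protein-coding gene lay within 100 kb of 113 members. LINC02575 is 2.37 kb from TSPEAR, a gene linked to inherited hearing and ectodermal disorders, and TSPEAR went from 0.977 to 18.1 normalized counts. LINC02241 is 35.9 kb from the cadherin gene CDH18, which rose from 5.34 to 92.6. The log2 fold changes of these neighbours were 4.02 ± 0.55 and 4.10 ± 0.25 (SE).

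Falling members showed the same arrangement. LINC01366 lies 9.91 kb from LCP2, which encodes the haematopoietic signalling adaptor SLP-76. LCP2 fell from 3744.6 to 69.5 normalized counts, a log2 fold change of -5.75 ± 0.08 (SE). LINC01602 lies 10.4 kb from FAM110B, which went from 61.3 to 3.36, a log2 fold change of -4.15 ± 0.32. Member and neighbour moved in the same direction in these pairs, by unequal amounts in the pairs with LCP2, TSPEAR and CDH18.

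Other neighbours went the opposite way. LINC02434 fell while TRIML2, 50.1 kb away, went from 1.99 to 13.1 normalized counts. LINC00467 rose while TRAF5, an adaptor of TNF receptors 7.79 kb away, fell from 644 to 241. LINC00261, named here after its values were seen, rose from 23.3, 21.1 and 15.3 to 133, 118 and 108, and FOXA2, the endoderm transcription factor gene 2.36 kb away, fell from 162 to 58.7. FOXA2 and LINC00261 are known to be expressed together in endoderm.

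Counted over all members, most neighbours were not called. Of 24 higher members with a neighbour within 100 kb, 5 had a neighbour called higher, 2 a neighbour called lower and 17 a neighbour not called. Of 12 lower members, 3 had a lower neighbour, 1 a higher one and 8 one not called. For all higher genes with a total of 300 or more, 25.3% of neighbours were higher, against 20.8% for LINC genes, and for all lower genes 17% were lower, against 25%. Neighbours called the opposite way were 2.07% for all higher genes and 6.02% for all lower genes, against 8.33% for both sets of LINC genes. Across the 113 pairs, Pearson's r between the log2 fold changes was 0.488 and Spearman's rho 0.164. Both are across genes measured in the same libraries, which are not independent replicates.

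**Figure D5:**
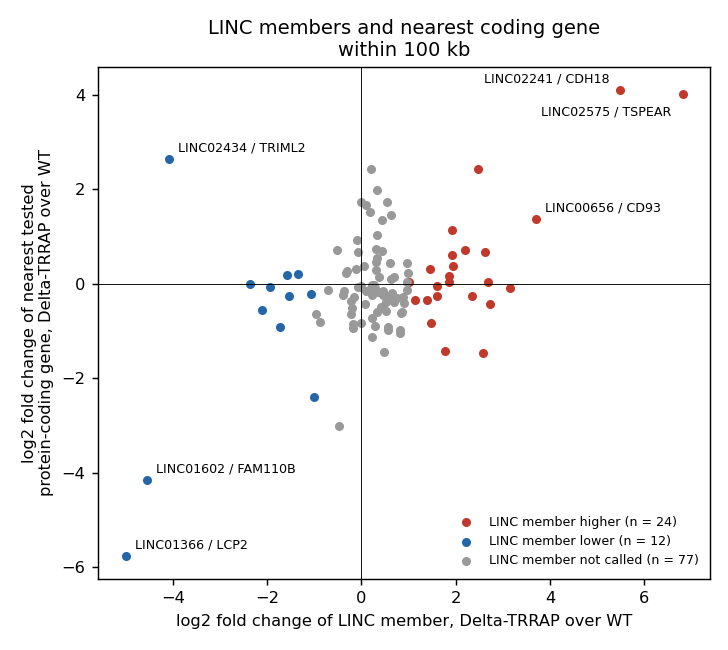
For 113 LINC genes with a tested protein-coding gene within 100 kb, the horizontal axis gives the log2 fold change of the LINC gene and the vertical axis that of the nearest coding gene, both Delta-TRRAP over WT. Labelled pairs include LINC02575 with TSPEAR and LINC01366 with LCP2, which moved together, and LINC02434 with TRIML2, which moved in opposite directions. Most neighbours of called members lie near 0.

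Some members start head to head with a coding gene. In 12 members the start lay within 2000 bases of the start of a coding gene on the other strand. None of the 3 called among these had a called partner. LINC01134 rose at a log2 fold change of 2.72 while C1orf174 changed by -0.42, and LINC00894 rose by 1.61 while EOLA2 (CXorf40B in the counting annotation) changed by -0.25.

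Values of the surrounding region were set beside the members. The median log2 fold change of well-expressed genes within 1000 kb was -0.04 around the 27 higher members with 5 or more such genes, with a range of -0.41 to 0.37. Around 11 lower members it was -0.20, with a range of -0.80 to 0.18. Around 76 members not called it was -0.09, with a range of -0.78 to 1.56. The 3 ranges overlap, and their difference was not tested. The higher and lower members were called for changing 2-fold or more, so their distance from these medians is not a result. LINC00884 and LINC00885, both near the end of the long arm of chromosome 3, had regional medians of -0.80 and -0.77 beside their own values of -1.72 and -1.01.

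Promoter sequences are shown for members with some of the strongest changes. RefSeq windows (GRCh38.p14) from 250 bases before to 50 bases after the RefSeq start were matched for 99 of 165 members. The RefSeq start can differ from the GENCODE start printed above, and the LINC00879 and LINC02434 windows begin inside the GENCODE gene. Windows of 3 of the largest rises and 3 of the largest falls with an entry are printed 5′ to 3′ on the gene's strand. Capitals mark GATAA (the core of the GATA factor motif), TGANTCA (the AP-1 motif), CACGTG (the E-box bound by MYC) and TATAAA, on either strand. The rises are LINC02241 (chr5:20611590-20611889, plus strand), LINC01132 (chr1:234723792-234724091, plus) and LINC00656 (chr20:23132587-23132886, minus).
LINC02241: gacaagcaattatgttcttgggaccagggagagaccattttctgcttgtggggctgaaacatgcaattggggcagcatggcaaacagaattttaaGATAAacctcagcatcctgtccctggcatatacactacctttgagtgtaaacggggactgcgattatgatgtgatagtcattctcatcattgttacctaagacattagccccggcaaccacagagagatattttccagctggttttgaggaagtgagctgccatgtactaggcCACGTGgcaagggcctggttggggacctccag
LINC01132: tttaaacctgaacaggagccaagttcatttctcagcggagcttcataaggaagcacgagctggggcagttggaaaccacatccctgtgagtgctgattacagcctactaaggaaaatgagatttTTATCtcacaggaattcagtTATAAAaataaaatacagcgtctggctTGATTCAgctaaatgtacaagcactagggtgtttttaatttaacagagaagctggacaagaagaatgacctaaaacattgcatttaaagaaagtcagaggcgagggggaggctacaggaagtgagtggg
LINC00656: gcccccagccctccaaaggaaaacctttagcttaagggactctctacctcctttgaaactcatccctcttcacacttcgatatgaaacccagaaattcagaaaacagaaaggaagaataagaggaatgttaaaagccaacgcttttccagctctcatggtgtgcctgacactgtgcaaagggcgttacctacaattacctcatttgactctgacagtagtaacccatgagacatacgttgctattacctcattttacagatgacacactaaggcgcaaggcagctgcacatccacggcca
The falls are LINC00879 (chr3:94938013-94938312, plus), LINC02434 (chr4:188159803-188160102, plus) and LINC00942 (chr12:1500241-1500540, plus).
LINC00879: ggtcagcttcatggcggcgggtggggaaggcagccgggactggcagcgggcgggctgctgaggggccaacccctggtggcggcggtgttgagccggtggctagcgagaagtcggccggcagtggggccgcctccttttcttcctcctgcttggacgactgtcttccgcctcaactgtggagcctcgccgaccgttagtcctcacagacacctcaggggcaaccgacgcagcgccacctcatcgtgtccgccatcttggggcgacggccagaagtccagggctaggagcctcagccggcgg
LINC02434: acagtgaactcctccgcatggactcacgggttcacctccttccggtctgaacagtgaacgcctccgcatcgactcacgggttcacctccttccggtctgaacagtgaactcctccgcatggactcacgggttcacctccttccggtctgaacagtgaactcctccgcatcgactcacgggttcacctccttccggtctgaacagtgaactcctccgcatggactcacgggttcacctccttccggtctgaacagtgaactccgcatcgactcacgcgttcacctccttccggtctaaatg
LINC00942: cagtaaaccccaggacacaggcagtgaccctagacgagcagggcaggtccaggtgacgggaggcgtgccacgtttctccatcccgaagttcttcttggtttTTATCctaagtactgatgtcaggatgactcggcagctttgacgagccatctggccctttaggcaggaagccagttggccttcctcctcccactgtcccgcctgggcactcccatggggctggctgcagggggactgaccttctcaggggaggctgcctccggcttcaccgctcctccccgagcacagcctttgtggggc

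These windows differ visibly in base composition. The 3 rises hold 4, 4 and 6 CG dinucleotides and 48%, 42% and 45.7% GC. The 3 falls hold 26, 23 and 11 CG dinucleotides and 68.7%, 57.7% and 61.3% GC. That contrast did not extend to all called members: the median number of CG dinucleotides was 15 in 16 windows of higher members, 15.5 in 12 windows of lower members and 8 in 71 windows of members not called, and 14 over all 34943 windows. At least 1 GATAA was present in 4 of 16 higher, 4 of 12 lower and 18 of 71 other members, against 22.8% of all windows. TGANTCA was present in 2, 1 and 6 of them, against 7.72% of all windows. CACGTG was found in 1, 1 and 3, against 7.23%, and TATAAA in 3, 2 and 11, against 11.6%. A match is a stretch of letters and not a measured binding site.

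Well-known lncRNAs without LINC names were read from the same fit for context. Of 30 on a list of general knowledge, 27 were tested, with 3 called higher and 3 lower, beside 16.5% and 6.08% of all genes tested. Their median log2 fold change was -0.27, opposite in sign to the LINC median. The 2 sets differ in level. The listed genes ran from 11.6 (TINCR) to 31940.7 (MALAT1) normalized counts in WT, while the highest mean of a member was 8666.5. Over genes with a raw total of 300 or more, those with means of 1000 or more had a median of -0.14. NEAT1, the scaffold RNA of paraspeckles, rose by 2.48 ± 0.16 (SE) on the log2 scale, and H19, an imprinted RNA, changed by -3.27 ± 0.09. NORAD, a cytoplasmic RNA that binds Pumilio proteins, changed by -0.70 ± 0.05 without reaching a fold change of 2. MALAT1, a nuclear speckle RNA, changed by 0.72 ± 0.18.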

How the data were processed

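Poly(A) RNA of 3 WT and 3 Delta-TRRAP libraries was analysed, with groups and replicate numbers taken from sample titles. The authors deposited raw counts per gene for each library: reads were aligned to hg38 with STAR, only uniquely mapping reads were kept, and HTSeq 2.0.2 counted them in reverse-stranded union mode on GENCODE release 32. Unique mapping lowers counts of genes with near-identical copies. Their table of normalized values (3 of its columns belong to samples not analysed here) and their DESeq2 result table of fold changes and p-values were not used.

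The test was that of edgeR 4.0.16, run in R 4.3.3 (TMM, quasi-likelihood F test, group as the only term), with Benjamini-Hochberg adjustment over the 19114 genes whose normalized counts averaged 5 or more, of 34998 with a count. Standard errors were derived from the F statistic. For genes with few reads in a group they can be smaller than counting error alone. A call needed an adjusted p no larger than 0.01 and a 2-fold change, the thresholds of the study. Positions, lengths and neighbours came from GENCODE release 44 on GRCh38. Named genes followed a rule: the 8 largest rises and 8 largest falls without overlap, the 6 most abundant, the 4 least changed with 1000 or more reads, 3 on each side of the total of 300, any on in one group only, and LINC00467, LINC00667, LINC01128 and LINC00958. Other members named (LINC00261, LINC00346, LINC00431, LINC00885, LINC00894, LINC01004, LINC01134, LINC01578, LINC01608, LINC02163) were singled out after their values were seen. Members, lists and rules were chosen with earlier results of these data known. Between libraries of a group the chi-square of counts was 4.93 to 15.5 times that of sampling noise. P-values measure only the spread between these libraries, and counting intervals cover counting error only. The fit was tested on simulated data. A further list of cell type markers is not reported here. Alternatives were DESeq2 1.42.0, limma-voom (limma 3.58.1), other scalings, filters and thresholds, a replicate block, and leaving out each library.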

Additional observations from a re-analysis of the deposited data

How the results depend on the processing

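DESeq2, limma-voom, RLE scaling and the replicate block each called 36 LINC genes higher and 15 lower, and all 51 DESeq2 calls and all 51 calls under the block were in the direction reported; over all genes the block gave 4184 calls. Library size scaling gave 43 members higher and 13 lower (3599 and 921 over all genes) and upper quartile scaling 42 and 13 (3448 and 976). With each library left out in turn, 50 to 54 members were called (35 to 39 higher, 13 to 16 lower), and over all genes 4016 to 4263 (2881 to 3094 higher, 1097 to 1169 lower). The call changed in at least 1 of these fits for 11 members, 4 of them called with all libraries, with log2 fold changes of 0.81 to 1.04 for rises and -1.06 to -0.97 for falls. The member median ranged from 0.30 to 0.35 in these fits and was 0.46 under library size scaling. With all libraries it stood 0.29 above the median of all genes tested, a gap that scaling cannot move, and 0.18 above it with no filter and 0.39 with a minimum mean of 50.

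At a fold change of 1.5, 82 members were called (59 higher, 23 lower) and 6750 genes in all, 2562 of them lower, since the rule was looser. With a minimum mean of 50, 1964 genes were called, 1291 higher and 673 lower, since fewer could be, and 54 members, 41 higher and 13 lower. A read total of 100 gave 103 called of 268 (79 higher, 24 lower) and a median of 0.46. A total of 1000 gave 19 of 95 (13 higher, 6 lower). Over all genes the share called also fell with the total: 37.6% at 300 to under 1000 reads, 16.2% at 1000 to under 10000 and 5.85% at 10000 or more. The share over all genes at a total of 100 was not taken, so the members' rise there is not a result about LINC genes. With up to 30 reads counted as off, 7 members were on in one group only, and leaving out one library gave 0 to 1. Counting all LINC symbols, the share of reads was 0.207% in WT and 0.277% in Delta-TRRAP.

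The 4 least changed members turned positive under library size scaling (0.13 for LINC01003 and LINC01128, 0.11 for LINC00665, 0.09 for LINC01088), under upper quartile scaling (0.099, 0.099, 0.08 and 0.058) and with a minimum mean of 50 (0.071, 0.071, 0.052 and 0.029). Without one library LINC01003 ranged from -0.081 to 0.047, LINC01128 from -0.037 to 0.024 and LINC00665 from -0.081 to 0.025. The median of all genes tested was 0.03 in the reported fit. It was 0.17 under library size scaling, 0.13 under upper quartile scaling and 0.01 with a minimum mean of 50, where fewer genes were tested. The cause of the members' shifts was not tested.

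Deviations from the group means of libraries with the same replicate number correlated at -0.035 to -0.011, which shows no pairing, so the replicate block is only an alternative. At these depths a member with 5 reads in one group has a fold change bounded only loosely.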
